A study of Mus musculus with 6 samples.

Results

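The genes described here are 9 genes of the programme that T cells follow while they stay naive, recirculate or form memory, and they were followed in DNT cells with and without IL-33. They are Tcf7, Lef1, Klf2, S1pr1, Il7r, Bach2, Id3, Foxo1 and Satb1, taken from a list of symbols and matched by Ensembl identifier to 9 of the 26128 genes counted. The list was chosen with earlier results of these data known. DNT cells are T cells that carry CD3 but neither CD4 nor CD8. The cells were made in vitro out of CD4+ T cells from wild-type adult C57BL/6 mice, with allogeneic DBA/2 mature dendritic cells and IL-2, and sorted as CD3+NK1.1-CD4-CD8- cells. All 6 libraries came from such cells after 48 h on anti-CD3/CD28 beads, which engage the T cell receptor and its costimulator. The 3 control libraries received the beads alone, and the 3 IL-33 libraries received IL-33 at 50 ng/ml as well. Every value therefore describes cells that were already activated, converted in vitro and measured at a single time and dose.

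In resting naive and memory T cells these genes are expressed together. FOXO1 is kept in the nucleus when antigen receptor and PI3K signals are weak, and there it drives Il7r, Klf2 and Ccr7, while KLF2 in turn drives S1pr1, whose product lets T cells leave lymphoid organs. TCF1 (Tcf7) and LEF1 (Lef1), BACH2 and ID3 hold back effector differentiation, against factors such as BLIMP1 (Prdm1) and ID2, and strong activation lowers much of this set.

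The libraries held 20256342 to 22336050 counts, and 3 counts, taken as the limit of detection for counting error only, correspond to 0.135 to 0.148 counts per 1000000 counts (CPM). Of 14671 genes that passed the filter on low counts, edgeR called 1999 higher with IL-33 at an adjusted p under 0.05 (13.6%) and 2037 lower (13.9%). With a fold change of at least 1.5 in either direction as well, 363 were higher (2.47%) and 351 lower (2.39%), and these 2 conditions together are called both thresholds below. Whether replicates were separate animals, conversions or wells is not stated, so that the p-values measure the spread between these libraries, which may be technical. The T cell identity genes were present as the label says, with all 11 tested, 1 higher, 2 lower and a summed level of 3840 to 3990 CPM in the control libraries and 3900 to 4060 CPM with IL-33. The sort on CD4 and CD8 was mirrored by Cd4, at 0.934 ± 0.183 CPM (SD, n = 3) in the control libraries, and not by Cd8a, at 545 ± 13.6 CPM. Cd8b1 was far lower than Cd8a there, at 9.68 ± 1.65 CPM, not corrected for length. Klrb1c, the gene of NK1.1, which the sort also excluded, was at 33.5 ± 2.57 CPM in the control libraries and 25.6 ± 1.15 CPM with IL-33 (log2 fold change -0.39, edgeR adjusted p = 7.14e-06).

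All 9 genes passed the filter, and 7 of them changed at an adjusted p under 0.05, where 27.5% of all genes tested did. Lef1, Klf2 and Foxo1 rose with IL-33, and Tcf7, Il7r, Bach2 and Satb1 fell, while S1pr1 and Id3 did not pass the test. In bulk RNA, fewer cells that express a gene and less of its RNA per cell cannot be told apart. The 3 libraries of each group did not overlap for those 7 genes, 3 of them higher and 4 lower, where 19.4% of all genes tested did not overlap with IL-33 higher and 19.5% with IL-33 lower. Klf2 alone of the 9 was past both thresholds upward, and Il7r alone downward. Over all genes tested 2.47% were past both upward and 2.39% downward. The median log2 fold change of the 9 was -0.27, beside -0.000628 over all genes tested. By the size of the log2 fold change, 5.41% of the genes tested lay above Klf2, 6.72% above Il7r and 39.6% above Satb1, which had the lowest place of the 9.

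**Figure D1:**
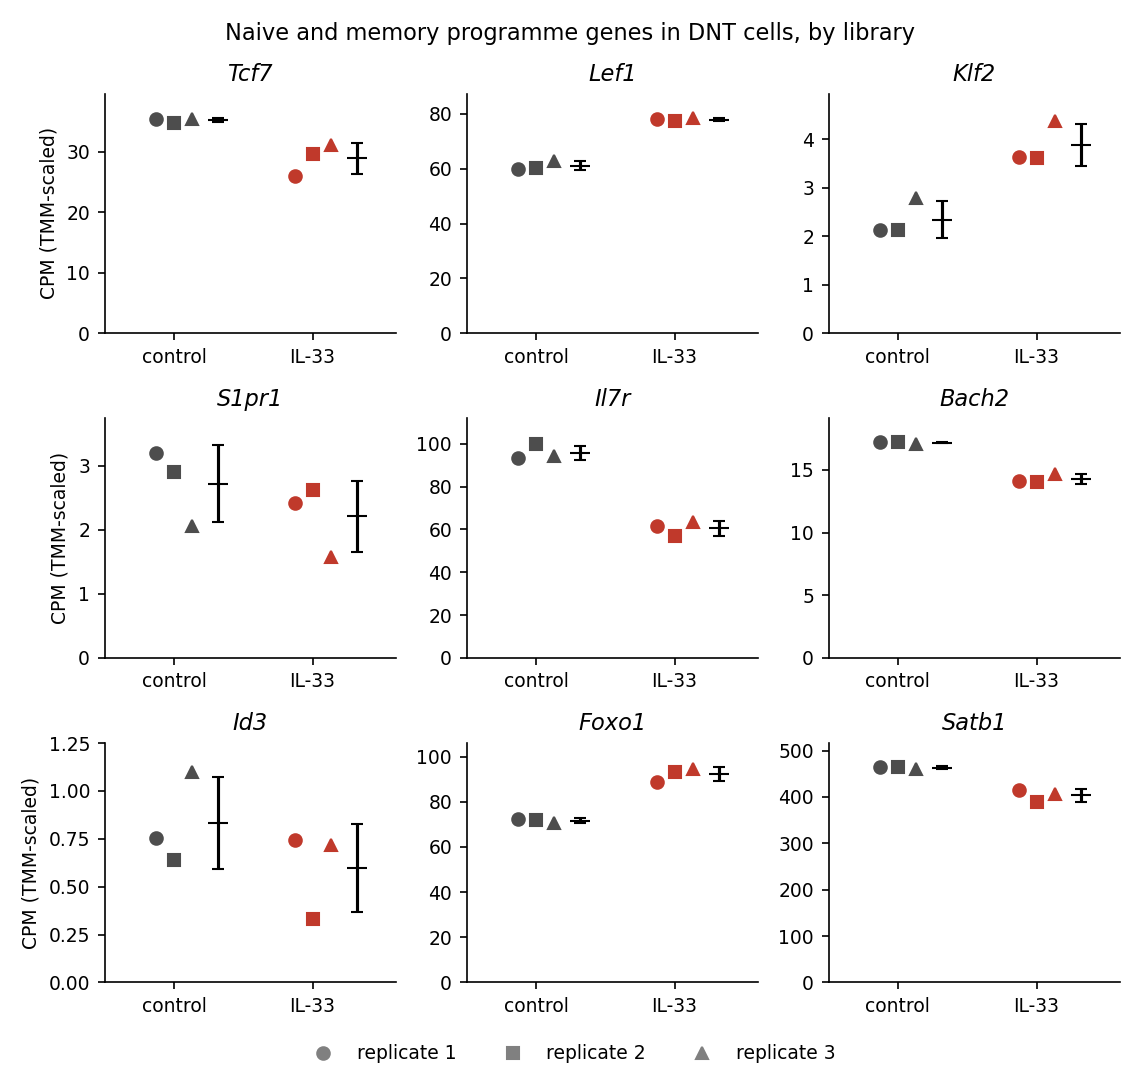
Level of each of the 9 genes in every library, in TMM-scaled CPM on a linear axis from 0, with 1 point per library, a symbol per replicate number, and the mean with its SD (n = 3) as a bar at the side. Lef1, Klf2 and Foxo1 lie higher in all 3 IL-33 libraries, Tcf7, Il7r, Bach2 and Satb1 lie lower in all 3, and the groups overlap for S1pr1 and Id3.

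The promoters of the 3 genes that rose are shown because these genes moved together. A RefSeq promoter (GRCm38.p6) was matched by symbol for 8 of the 9 genes, all but S1pr1. For Il7r, Bach2 and Id3 the cut described next left no bases, so that these genes had no window. The windows hold up to 250 bases on the plus strand before the RefSeq start nearest to the GENCODE start, 5′ to 3′, cut to the bases upstream of both the RefSeq and the GENCODE start, and capitals mark every match to a searched motif. The Lef1 window is chr3:131110073-131110322 with 66.4% GC, the Klf2 window is chr8:72318812-72319032 with 71.5% GC, and the Foxo1 window is chr3:52268087-52268335 with 55.8% GC.
Lef1: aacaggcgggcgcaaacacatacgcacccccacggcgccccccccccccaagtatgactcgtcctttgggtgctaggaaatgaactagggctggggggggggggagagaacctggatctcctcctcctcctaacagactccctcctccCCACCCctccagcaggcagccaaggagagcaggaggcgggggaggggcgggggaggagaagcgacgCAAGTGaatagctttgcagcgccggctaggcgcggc
Klf2: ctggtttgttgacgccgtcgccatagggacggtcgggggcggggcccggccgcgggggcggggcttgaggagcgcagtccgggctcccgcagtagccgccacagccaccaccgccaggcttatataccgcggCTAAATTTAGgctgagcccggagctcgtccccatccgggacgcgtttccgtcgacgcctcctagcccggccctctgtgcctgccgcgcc
Foxo1: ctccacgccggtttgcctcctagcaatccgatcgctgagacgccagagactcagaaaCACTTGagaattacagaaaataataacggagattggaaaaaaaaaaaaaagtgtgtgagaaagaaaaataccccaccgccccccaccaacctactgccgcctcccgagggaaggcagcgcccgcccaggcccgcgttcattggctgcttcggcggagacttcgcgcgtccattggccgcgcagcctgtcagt
The motifs were searched on both strands. They were the forkhead motif GTAAACA, the TCF/LEF motif CTTTGAA or CTTTGAT, the KLF/SP motif CCACCC, the E-box CANNTG, the NF-kB motif (GGG and TTTCC with 2 bases between) and the MEF2 motif (CTA and TAG with 4 bases between), which was added after the Klf2 window had been seen. The Lef1 window held 1 KLF/SP match and 1 E-box, the Klf2 window 1 MEF2 match, and the Foxo1 window 1 E-box. Of 32851 mouse promoter windows, cut to the same lengths, 28.1% held the KLF/SP motif and 66.2% an E-box at 250 bases, 2.86% the MEF2 motif at 221 bases, and 66.1% an E-box at 249 bases. The forkhead, TCF/LEF and NF-kB letters were in none of these 3 windows, and they are in 3.17%, 7.48% and 1.41% of all windows of 250 bases. No motif of the 6 was in all 3 windows, and the E-box, which most windows hold, was in those of Lef1 and Foxo1.

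Il7r, the gene of the IL-7 receptor alpha chain that carries the survival signal of naive and memory T cells, had the smallest p of the 9. Its level was 93.6, 99.7 and 94.5 CPM in the control libraries and 61.4, 56.8 and 63.4 CPM in the IL-33 libraries. Every IL-33 library was far below every control library, and the mean fell from 95.9 ± 3.28 to 60.5 ± 3.4 CPM (SD, n = 3). IL-33 gave a log2 fold change of -0.66 (SE 0.0445, 95% interval -0.75 to -0.58, edgeR adjusted p = 1.14e-24), which corresponds to a change of -36.9%. By p-value Il7r stood at rank 40 of the 14671 genes tested. The gene lies on the minus strand of chromosome 15, at 9505788 to 9530176 (ENSMUSG00000003882, GENCODE M21, GRCm38), and no other annotated gene overlaps it.

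Among 11 tested partners and targets of the IL-7 receptor, 3 rose, 5 fell and 3 did not pass the test, where 13.6% of all genes tested rose and 13.9% fell. The median log2 fold change of these partners and targets was -0.02. Socs1, which encodes an inhibitor of cytokine signalling and is itself induced by STAT5, was the only one past both thresholds and fell from 47.8 ± 0.273 to 26.2 ± 3.01 CPM, a log2 fold change of -0.87 (SE 0.0671, edgeR adjusted p = 1.04e-20). The common gamma chain Il2rg, the other chain of the receptor, had a log2 fold change of -0.13 (edgeR adjusted p = 0.0072), and the kinase gene Jak1 one of 0.16 (edgeR adjusted p = 1.96e-08). Stat5b, a transcription factor downstream of the receptor, rose by a log2 fold change of 0.41. Il7r, Il2rg and Socs1 were thus lower with IL-33, and Jak1 and Stat5b higher.

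Klf2 and S1pr1, the pair that governs exit from lymphoid tissue, both had few counts, and only Klf2 passed the test. Klf2, a zinc finger factor of quiescence and trafficking, had 45, 43 and 61 counts in the control libraries and 78, 76 and 97 counts with IL-33, or 2.12, 2.12 and 2.78 CPM against 3.63, 3.62 and 4.37 CPM. Replicate 3 was the highest library of both groups, and the groups were still apart. The mean rose from 2.34 ± 0.384 to 3.87 ± 0.427 CPM (SD, n = 3), a 1.65-fold rise with a log2 fold change of 0.72 (SE 0.21, 95% interval 0.31 to 1.14, edgeR adjusted p = 0.00476). Of all genes tested, 74.5% had a higher mean CPM than Klf2, so that the fold rests on few reads.

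S1pr1, the receptor for sphingosine-1-phosphate, had 68, 59 and 45 counts in the control libraries and 52, 55 and 35 counts with IL-33. Replicate 3 was here the lowest library of both groups, and the groups overlapped. The mean was 2.72 ± 0.597 CPM without and 2.21 ± 0.555 CPM with IL-33 (SD, n = 3), with a log2 fold change of -0.30 (SE 0.239, 95% interval -0.78 to 0.17, edgeR adjusted p = 0.378). At this depth the interval spans a fall past the threshold and a small rise. Within each library the log2 ratio of Klf2 to S1pr1 went from a mean of -0.20 to 0.83, with no overlap, a difference of 1.04 (exact permutation test, two-sided, p = 0.1, the smallest that 3 against 3 libraries allow). Not corrected for length, Klf2 counts were 0.664 to 1.35 times those of S1pr1 in the control libraries and 1.38 to 2.75 times with IL-33.

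Cd69, whose product binds the S1P receptor and removes it from the cell surface, rose from 190 ± 2.78 to 252 ± 8.28 CPM (SD, n = 3), a log2 fold change of 0.41 (SE 0.0336, edgeR adjusted p = 3.5e-19). The log2 ratio of S1pr1 to Cd69 went from -6.14 to -6.86, a difference of -0.71 without overlap (exact permutation test, two-sided, p = 0.1). The groups nearly touched, with control replicate 3 at -6.5 and IL-33 replicate 2 at -6.6, and S1pr1 alone did not pass the test. Over all genes tested 13.6% rose and 13.9% fell, and the list of the sphingosine-1-phosphate pathway was not tested as a group. In that list, 3 of 10 tested genes rose and the other 7 did not pass the test, with a median log2 fold change of 0.14. The largest of these rises was in Spns2, the gene of a transporter that exports sphingosine-1-phosphate, which went from 7.11 ± 0.762 to 18.9 ± 1.18 CPM (log2 fold change 1.41, SE 0.113, edgeR adjusted p = 5.13e-20). The third gene was S1pr4, a receptor of the same family found on lymphocytes, at 80.6 ± 2.85 CPM without and 99.5 ± 4.68 CPM with IL-33 (log2 fold change 0.30, edgeR adjusted p = 4.01e-09).

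Other KLF genes did not follow Klf2 as a group. Among 12 tested, 3 rose, 3 fell and 6 did not pass the test (median log2 fold change 0.08), where 13.6% of all genes tested rose and 13.9% fell. Klf3, a repressor that competes with other KLF factors for their sites, fell from 20.2 ± 0.706 to 12.7 ± 0.929 CPM (log2 fold change -0.67, SE 0.0971, edgeR adjusted p = 1.03e-08). Klf4, a factor that restrains T cell proliferation, fell from 5.44 ± 0.767 to 2.77 ± 0.302 CPM (log2 fold change -0.97, SE 0.185, edgeR adjusted p = 9.89e-06). Klf2 was the only member of the family past both thresholds upward, and Klf3 and Klf4 were the only ones downward.

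Foxo1, the forkhead factor at the head of this programme, was 72.4, 72 and 70.6 CPM in the control libraries and 88.9, 93.3 and 94.6 CPM with IL-33. All IL-33 libraries were higher than all control libraries, with means of 71.7 ± 0.912 and 92.3 ± 3 CPM (SD, n = 3). Its log2 fold change was 0.36 (SE 0.0429, 95% interval 0.28 to 0.45, edgeR adjusted p = 6.53e-12), below the fold threshold. Of 15 tested relatives and upstream kinases, 7 rose, 2 fell and 6 did not pass the test (median log2 fold change 0.15), against the same 13.6% and 13.9% of all genes tested, and the list as a group was not tested. Pik3cd, the catalytic PI3K subunit of lymphocytes and the gene of that list with the highest CPM, not corrected for length, went from 560 ± 7.8 to 646 ± 5.47 CPM (log2 fold change 0.21, SE 0.0263, edgeR adjusted p = 1.42e-10). No gene of the list passed both thresholds.

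FOXO1 is regulated largely by its place in the cell, which RNA does not show, and the genes it is known to drive can be set beside it. Of 14 tested target genes other than Il7r and Klf2, 8 rose, 3 fell and 3 did not pass the test, and their median log2 fold change was 0.23. Over all genes tested 13.6% rose and 13.9% fell, and the list as a group was not tested. Ccr7, the chemokine receptor for entry into lymph nodes, was past both thresholds and went from 3.72, 4.43 and 4.2 CPM in the control libraries to 9.21, 8.35 and 9.59 CPM with IL-33. That is a rise from 4.12 ± 0.36 to 9.05 ± 0.635 CPM (log2 fold change 1.14, SE 0.149, edgeR adjusted p = 3.94e-10). The FOXO1 targets Klf2, Ccr7 and Il7r thus gave different readings in the same libraries, with Klf2 and Ccr7 higher and Il7r lower.

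The HMG-box factors Tcf7 and Lef1, which bind the same DNA motif and serve partly the same functions, moved in opposite directions. Tcf7 was 35.4, 34.8 and 35.4 CPM in the control libraries and 26, 29.6 and 31.1 CPM with IL-33. The control libraries were nearly equal, and the IL-33 libraries were all lower but more spread, at 35.2 ± 0.323 and 28.9 ± 2.6 CPM (SD, n = 3). This was a log2 fold change of -0.28 (SE 0.0694, 95% interval -0.42 to -0.15, edgeR adjusted p = 0.000676). Lef1 was 60, 60.3 and 63 CPM in the control libraries and 78, 77.3 and 78.5 CPM with IL-33. Here the IL-33 libraries were nearly equal and all higher, at 61.1 ± 1.62 and 77.9 ± 0.638 CPM (SD, n = 3). The log2 fold change was 0.35 (SE 0.0463, 95% interval 0.26 to 0.44, edgeR adjusted p = 4.87e-10).

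A ratio of these genes within a library does not depend on how libraries are scaled. Tcf7 had 0.562 to 0.59 times the counts of Lef1 in the control libraries and 0.334 to 0.396 times with IL-33. On the log2 scale the ratio went from a mean of -0.79 to -1.43, a difference of -0.64 with no overlap (exact permutation test, two-sided, p = 0.1, the smallest possible). Leaving out any single library gave differences between -0.69 and -0.56. Among 20 tested partners of TCF/LEF factors and genes of the WNT pathway, 1 rose, 7 fell and 12 did not pass the test (median log2 fold change -0.10), where 13.6% of all genes tested rose and 13.9% fell. Axin2, a negative regulator that is a common target of beta-catenin with TCF/LEF, fell from 4.86 ± 0.385 to 2.39 ± 0.586 CPM (log2 fold change -1.02, SE 0.197, edgeR adjusted p = 1.42e-05) and was the only gene of that list past both thresholds. Ctnnb1, the gene of beta-catenin, was 254 ± 3.4 and 234 ± 1.03 CPM (log2 fold change -0.12, edgeR adjusted p = 0.0019).

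**Figure D2:**
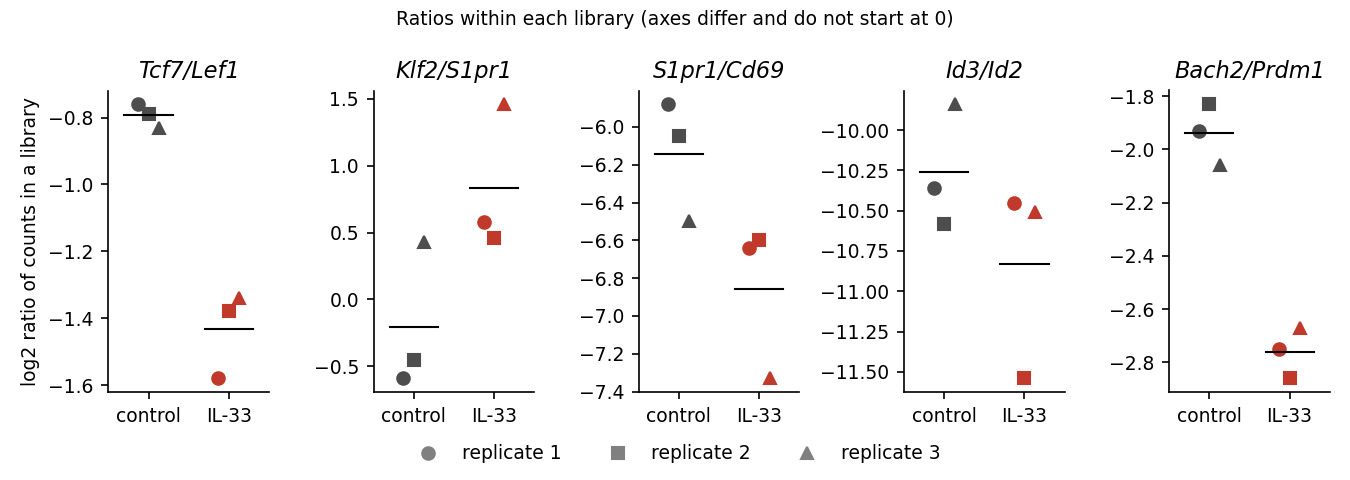
Log2 ratio of the counts of a pair of genes in each library, for 5 pairs, with 1 point per library, a symbol per replicate number and a line at the group mean of n = 3. The axes differ and do not start at 0, and the groups stand apart for all pairs but Id3 to Id2.

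Bach2, a repressor that keeps T cells from effector differentiation, was 17.2, 17.2 and 17.1 CPM in the control libraries and 14.1, 14 and 14.7 CPM with IL-33. The groups did not overlap and the spread within them was small, with means of 17.1 ± 0.0701 and 14.3 ± 0.399 CPM (SD, n = 3). The log2 fold change was -0.27 (SE 0.0979, 95% interval -0.46 to -0.07, edgeR adjusted p = 0.0321). This call was the least secure of the 7, since it was lost with DESeq2 (adjusted p = 0.0725), without a filter on low counts (edgeR adjusted p = 0.0522) and when any library but IL-33 replicate 3 was left out (edgeR adjusted p = 0.0641 to 0.0868). Prdm1, the gene of BLIMP1 and a known target of BACH2 repression, rose from 66 ± 5.16 to 97 ± 4.26 CPM (log2 fold change 0.55, SE 0.0456, edgeR adjusted p = 9.06e-18). Bach2 had 0.239 to 0.281 times the counts of Prdm1 in the control libraries and 0.137 to 0.157 times with IL-33, a log2 difference of -0.82 without overlap (exact permutation test, two-sided, p = 0.1).

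Relatives and partners of BACH2 changed in both directions, where 13.6% of all genes tested rose and 13.9% fell. Of the 9 relatives and partners tested, 5 were higher, 3 lower and 1 not past the test (median log2 fold change 0.12). These genes encode bZIP factors that share the MAF recognition element with BACH2, their small MAF partners, and targets. Nfe2l2, the gene of the oxidative stress factor NRF2, fell from 28.8 ± 2.91 to 16.3 ± 1.7 CPM (log2 fold change -0.82, SE 0.0854, edgeR adjusted p = 6.33e-14). Nfe2, best known from megakaryocytes and red cell precursors, rose from 0.628 ± 0.0765 to 1.77 ± 0.237 CPM (log2 fold change 1.48, SE 0.354, edgeR adjusted p = 0.000503). Bach1, the nearest relative, had a log2 fold change of -0.32 (SE 0.0496, edgeR adjusted p = 8.32e-08).

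Id3, an inhibitor of E protein transcription factors that marks naive and long-lived memory cells, had few counts. There were 16, 13 and 24 counts in the control libraries and 16, 7 and 16 counts with IL-33. The groups overlapped, and IL-33 replicate 2 was the lowest library. The means were 0.83 ± 0.237 and 0.599 ± 0.23 CPM (SD, n = 3), with a log2 fold change of -0.47 (SE 0.428, 95% interval -1.31 to 0.38, edgeR adjusted p = 0.465). At this depth the interval spans a fall past the fold threshold and a small rise. Id2, its counterpart in effector cells, was 1020 ± 4.92 CPM without and 1080 ± 9.41 CPM with IL-33 (log2 fold change 0.07, edgeR adjusted p = 0.0125). The log2 ratio of Id3 to Id2 was -10.26 without and -10.84 with IL-33, a difference that overlapped between the groups (exact permutation test, two-sided, p = 0.3). Of 4 tested ID and E protein genes other than Id3, Id2 rose, Tcf3 fell (log2 fold change -0.12, edgeR adjusted p = 0.0415, not called by DESeq2 or limma-voom) and the other 2 did not pass the test (median log2 fold change 0.02). Over all genes tested the shares were 13.6% higher and 13.9% lower.

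Satb1, a nuclear organiser that binds AT-rich DNA and holds T cell chromatin in loops, had the highest level per kilobase of the 9. It was 465, 465 and 460 CPM in the control libraries and 415, 389 and 406 CPM with IL-33. All IL-33 libraries were lower, at 403 ± 13.3 against 463 ± 3.05 CPM (SD, n = 3). The log2 fold change of -0.20 (SE 0.0287, 95% interval -0.26 to -0.14, edgeR adjusted p = 7.53e-09) was the smallest of the 7 called. In the list of its relatives and other genes of chromatin loops, 6 of 10 tested genes fell and the other 4 did not pass the test. The median log2 fold change of that list was -0.13. Over all genes tested 13.6% rose and 13.9% fell, and the list as a group was not tested. Smc1a, a subunit of the cohesin ring, fell from 312 ± 10.2 to 258 ± 7.3 CPM (log2 fold change -0.27, SE 0.0318, edgeR adjusted p = 5.63e-12) and had both the highest CPM, not corrected for length, and the smallest p of that list.

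**Figure D3:**
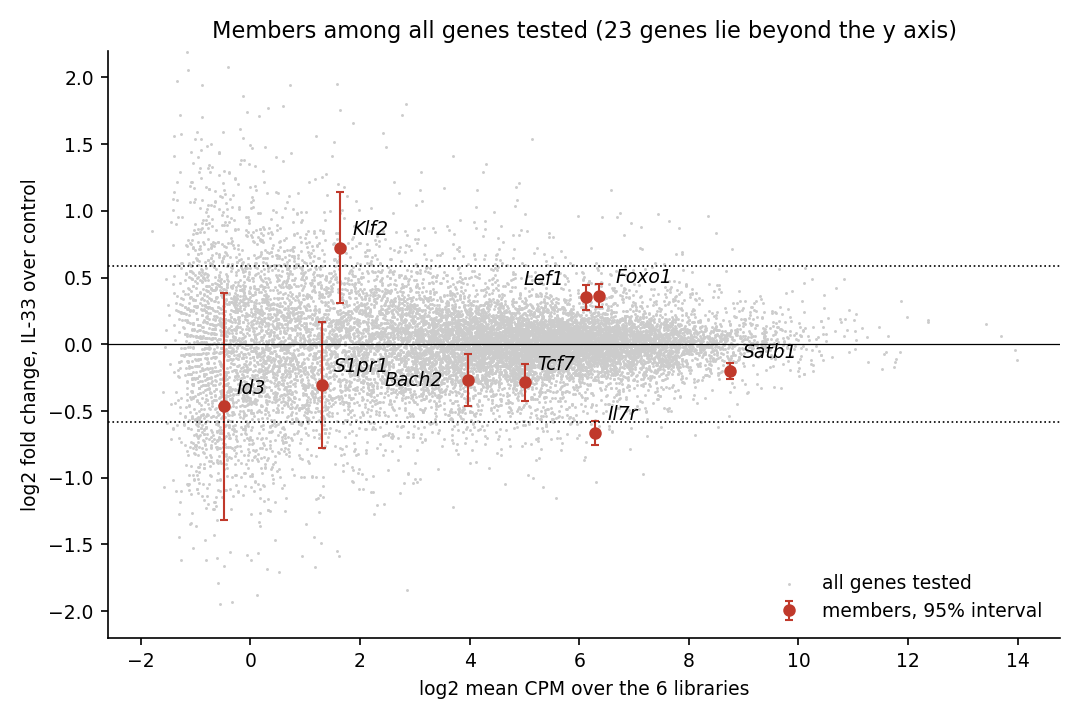
Log2 fold change of IL-33 over control against the log2 mean CPM over the 6 libraries, with the 9 genes in red with their 95% intervals and all 14671 genes tested in grey. Dotted lines mark the fold threshold of 1.5 in each direction, and 23 grey genes lie beyond the y axis. Klf2 and Il7r are the only red points past the dotted lines, and the wide intervals belong to Id3, S1pr1 and Klf2, which lie farthest left.

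Levels were compared between the 9 genes only per length, as CPM per kilobase of the union of a gene's exons. In the control libraries the order from high to low was Satb1 at 24.3 ± 0.16, Il7r at 20.6 ± 0.702, Tcf7 at 13.4 ± 0.123, Foxo1 at 8.27 ± 0.105, Lef1 at 6.95 ± 0.184, Bach2 at 1.72 ± 0.00705, Klf2 at 1.27 ± 0.208, S1pr1 at 0.893 ± 0.196 and Id3 at 0.463 ± 0.132 CPM per kb (SD, n = 3). No neighbours in this order overlapped. With IL-33 the distance between Satb1 at 21.2 ± 0.7 and Il7r at 13 ± 0.729 CPM per kb had widened. Tcf7 at 11 ± 0.991 and Foxo1 at 10.6 ± 0.346 CPM per kb then overlapped, and Klf2 at 2.1 ± 0.231 had passed Bach2 at 1.43 ± 0.0402 CPM per kb. The length matters for this order, since Lef1, with 16.7 CPM per kb of its longest transcript in the control libraries, stood above Tcf7 with 14.2 and Foxo1 with 8.27 on that measure. The trafficking genes Klf2 and S1pr1 and the regulators Id3 and Bach2 were the low end on either measure, and Satb1 the top.

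Counts of several of these genes share sequence with other annotated genes, and whether the counting used the strand is not given in the sources used here. An antisense gene, Gm43352, shares 1208 exon bases with Lef1, which had 1226 to 1745 counts. Gm43352 had 9, 23 and 15 counts in the control libraries and 21, 18 and 15 with IL-33. How reads in shared bases were assigned is not known, so counts of an overlapping gene do not bound its effect. Bach2 shares 537 exon bases with the antisense gene Bach2os, at 5 to 9 counts a library. Foxo1 shares 674 with the antisense gene Gm20402, which is not among the genes counted, so its level could not be set beside that of Foxo1. Satb1 shares 156 and 128 exon bases with Gm36931 and Gm6934. Tcf7 has overlapping genes in its introns only, and Klf2, S1pr1, Il7r and Id3 have none. In GENCODE M21 (GRCm38), Tcf7 lies on chromosome 11 at 52252371 to 52283014, Lef1 on chromosome 3 at 131110471 to 131224356, Klf2 on chromosome 8 at 72319033 to 72321656, S1pr1 on chromosome 3 at 115710433 to 115715072 and Bach2 on chromosome 4 at 32238804 to 32586108. Id3 lies on chromosome 4 at 136143497 to 136145755, Foxo1 on chromosome 3 at 52268336 to 52353221 and Satb1 on chromosome 17 at 51736187 to 51833290.

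Wider lists of naive, memory and effector genes outside the 9 also held rises and falls side by side. The shares to set beside the counts of each list are 13.6% higher and 13.9% lower over all genes tested. Among 19 tested naive T cell markers, 5 rose, 7 fell and 7 did not pass the test (median log2 fold change -0.07). Past both thresholds, Ccr7 and Dgka were higher and Klf3, Ramp1 and Ly6c1 lower. Dgka, a kinase that removes diacylglycerol and so damps T cell receptor signals, rose from 180 ± 4.28 to 291 ± 4.07 CPM (log2 fold change 0.69, edgeR adjusted p = 4.31e-35). Ly6c1, a surface antigen of naive and memory cells, fell from 20.9 ± 2.04 to 12.1 ± 0.565 CPM (log2 fold change -0.79, edgeR adjusted p = 5.58e-11), and Ramp1, a coreceptor for a neuropeptide, from 4.84 ± 1.35 to 2.51 ± 0.634 CPM (log2 fold change -0.94, edgeR adjusted p = 0.000114).

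Of 14 tested memory and stem-like T cell genes, 4 rose, 5 fell and 5 did not pass the test (median log2 fold change -0.08). Slamf6, a surface receptor used as a marker of stem-like T cells together with TCF1, rose from 8.75 ± 0.333 to 15.9 ± 1.34 CPM (log2 fold change 0.86, SE 0.112, edgeR adjusted p = 3.48e-10), opposite to Tcf7. Xcl1, a chemokine of the same cells, fell from 3.47 ± 0.765 to 1.08 ± 0.235 CPM (log2 fold change -1.67, SE 0.26, edgeR adjusted p = 7.86e-08). Of 19 tested effector regulators and markers, 8 rose, 7 fell and 4 did not pass the test (median log2 fold change 0.06). Ifng, the interferon-gamma gene, rose from 42.7 ± 4.03 to 83.2 ± 2.5 CPM (log2 fold change 0.96, SE 0.0523, edgeR adjusted p = 4.12e-29), and Cx3cr1, a receptor of late effector cells, fell from 1.44 ± 0.417 to 0.476 ± 0.213 CPM (log2 fold change -1.58, SE 0.398, edgeR adjusted p = 0.00103).

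**Figure D4:**
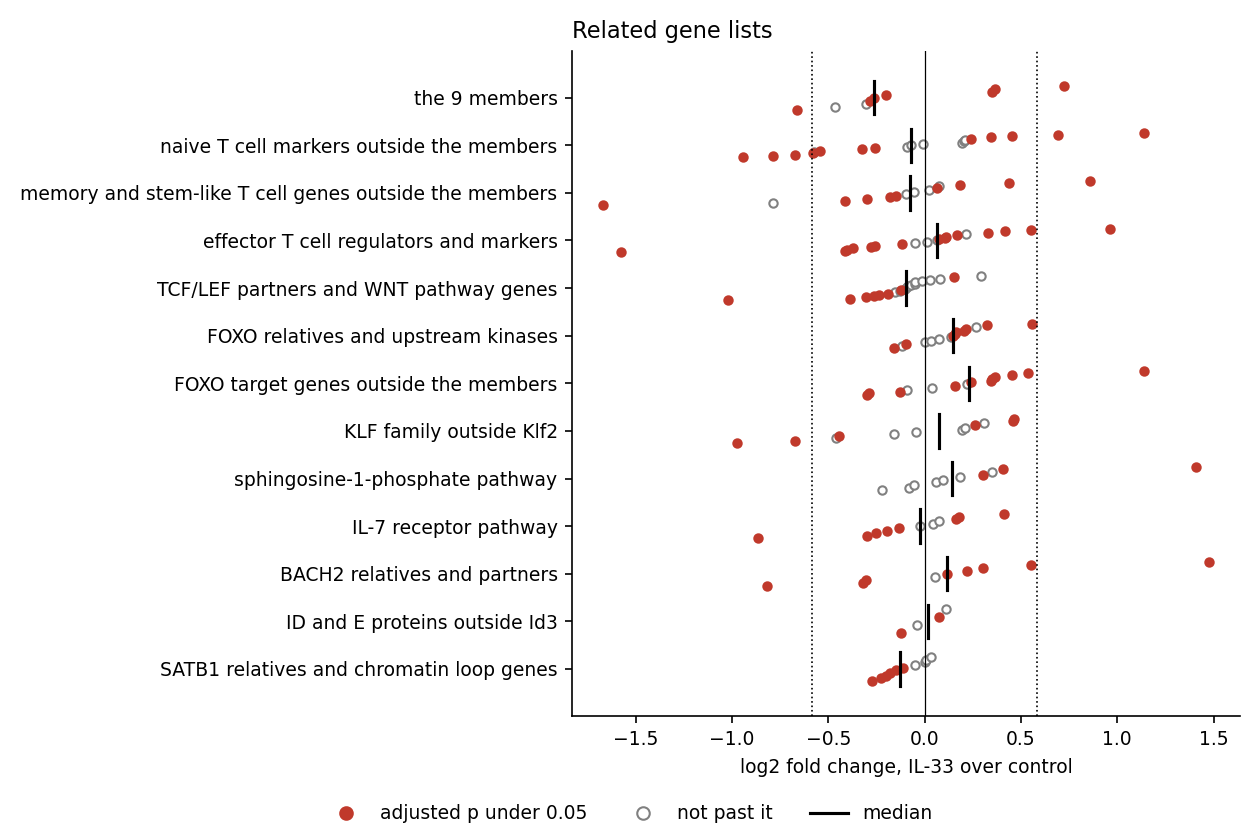
Log2 fold change of IL-33 over control for each tested gene of the 9 and of 12 related lists, with filled points at an adjusted p under 0.05, open points for the rest, a bar at the list's median and dotted lines at the fold threshold. Every list but those of the sphingosine-1-phosphate pathway and of SATB1 relatives holds filled points on both sides of 0.

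Levels of genes listed as markers of other cells moved between the groups too, where 13.6% of all genes tested rose and 13.9% fell. Of the coreceptor genes, Cd4 fell (log2 fold change -1.31), Cd8a fell to 400 ± 9.15 CPM (log2 fold change -0.45) and Cd8b1 rose to 16.3 ± 2.07 CPM (log2 fold change 0.75). Their summed level went from 544 to 573 CPM down to 411 to 428 CPM. All 4 gamma-delta T cell markers fell, from a sum of 299 to 320 CPM to one of 259 to 269 CPM. Most of that sum was Tcrg-C2, at 233 ± 8.59 CPM in the control libraries, where Trdc was at 24.7 ± 1.63 CPM. Of 8 dendritic and myeloid markers listed, 4 were tested, 1 rose and 2 fell, from a sum of 94.7 to 99.9 CPM to one of 70.4 to 76.1 CPM. Itgax fell from 54.6 ± 2.07 to 26 ± 1.59 CPM and Cd74 from 5.66 ± 0.374 to 3.78 ± 0.571 CPM, and H2-Ab1 rose from 24.8 ± 1.96 to 30.3 ± 1 CPM. Xcr1 was at 11.5 ± 1.02 and 12.4 ± 0.969 CPM and did not pass the test, and Lyz2, Csf1r, Adgre1 and H2-Aa had means of at most 0.379 CPM in the control libraries and 0.305 CPM with IL-33. Of 4 NK cell markers, 2 were tested and 1 fell (40.4 to 45.7 against 33.2 to 37.6 CPM in sum), nearly all of it from Klrb1c, which fell as given above, and Klre1, at 9.66 ± 1.05 and 9.33 ± 0.892 CPM. The NK cell marker Ncr1 was at 0.0478 ± 0.0471 and 0.106 ± 0.103 CPM. Of 5 mast cell and basophil markers, 2 were tested and 1 fell (14.9 to 19.9 against 10.2 to 13.6 CPM in sum), nearly all of it from Cpa3 and Mcpt8. Cpa3 fell past both thresholds, from 10.9 ± 2.04 to 7.1 ± 0.615 CPM (log2 fold change -0.62, edgeR adjusted p = 8.34e-05), and Mcpt8 was at 5.81 ± 0.714 and 4.32 ± 1.4 CPM (edgeR adjusted p = 0.0559). Ms4a2 and Tpsb2 were not tested and were near the limit of detection in the control libraries, at 0.172 ± 0.0922 and 0.112 ± 0.0769 CPM. Both were at 0 in all 3 IL-33 libraries. Of 6 B cell markers, 2 were tested and neither passed the test (5.02 to 5.75 against 5.44 to 6.57 CPM in sum). Whether these marker levels came from other cells or from the DNT cells themselves was not tested. Any part of other cells in the falls of Il7r, Tcf7, Bach2 and Satb1 or in the rises of Lef1, Klf2 and Foxo1 was not tested either.

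The gene whose log2 CPM followed Klf2 most closely over the 6 libraries, among 8833 whose mean reached 10 CPM, was Hcfc2 (Pearson's r = 0.9964). The points share the contrast between the groups, and 568 genes had r over 0.9 with Klf2 and 1073 with Il7r, so the likeness is a description only.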

How the data were processed

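RNA was sequenced from 6 libraries of DNT cells. The values deposited by the authors are raw counts per gene, not normalized, and a column of mean signal, named baseMean, that was not used for any result. The submitters' processing notes name Bowtie 0.12.2 and mm8 with no role, and no counting program is given in the sources used here. Sample labels name a TruSeq kit and the paper an NEBNext Ultra kit. Of 26128 Ensembl identifiers, 26072 matched GENCODE M21.

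Genes were filtered with filterByExpr (minimum count 10, total 15), scaled by TMM and compared with edgeR 4.0.16 in R 4.3.3 (robust quasi-likelihood test, two-sided, no covariates), with p-values adjusted by Benjamini-Hochberg over all tested genes. Thresholds were an adjusted p of 0.05 and a fold change of 1.5. Intervals cover 95%. CPM are TMM-scaled, and ratios used counts plus 0.5. The exact permutation tests covered 5 ratios, 20 regroupings each, without adjustment. Alternatives used DESeq2 1.42.0, limma 3.58.1, other scaling and filters, a replicate block, each library left out, a test against the fold threshold, and another gene length.

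The 9 genes, the lists and the tests were chosen with earlier results of these data known. Named genes are the 9, Cd69, Id2 and Prdm1, list genes past both thresholds or else those with the smallest p and highest level, genes that overlap the 9, and the closest pattern, of which some are not reported here. The markers were listed as a check of the cells. Other list genes named (S1pr4, Il2rg, Jak1, Stat5b, Ctnnb1, Bach1, Tcf3) were chosen after their values were seen.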

Additional observations from a re-analysis of the deposited data

How the results depend on the processing

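Over 12 alternatives (other tests, scaling, filters, the replicate block and each library left out) no log2 fold change of the 9 genes changed sign, and every call except that of Bach2 was kept. Scaling by the size factors of DESeq2 gave a median over all genes of -0.000293. The log2 fold change ranged from -0.34 to -0.21 for Tcf7, 0.34 to 0.37 for Lef1, 0.63 to 0.87 for Klf2, -0.47 to -0.11 for S1pr1, -0.70 to -0.62 for Il7r, 0.35 to 0.39 for Foxo1 and -0.22 to -0.17 for Satb1, and from -0.64 to -0.18 for Id3 over the 10 settings that gave it a value. Bach2 was -0.27 with DESeq2 (adjusted p = 0.0725) and -0.26 without a filter (edgeR adjusted p = 0.0522), and from -0.29 to -0.25 with a library left out. The cause was not tested.

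Tested with edgeR against the fold threshold itself, none of the 9 was called, with Il7r nearest at -0.66 (adjusted p = 0.635) and Tcf7 at -0.28, Lef1 at 0.35, Klf2 at 0.72, Bach2 at -0.27, Foxo1 at 0.36 and Satb1 at -0.20 (adjusted p = 1 each). Those higher, lower and past both thresholds numbered 0, 0 and 0, with 1 at an unadjusted p under 0.05, where the other tools, DESeq2 and limma-voom, each called 2 past both. Over all genes 75 were then higher and 38 lower, 113 in all.

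The replicate numbers did not pair the libraries (correlations of deviations 0.012, 0.003 and 0.011). With the replicate block Il7r was at -0.66 and Bach2 at -0.27 (edgeR adjusted p = 0.038), and 3 of the 9 were higher and 4 lower. The 5 ratios kept their direction with any library left out. On that basis the ratio of Klf2 to S1pr1 ran from 0.72 to 1.35, S1pr1 to Cd69 from -0.89 to -0.48, Id3 to Id2 from -0.77 to -0.22 and Bach2 to Prdm1 from -0.88 to -0.77. Among the lists, the fall of Tcf3 was lost in 8 settings, 2 FOXO target genes rather than 1 were past both thresholds without control replicate 3, and 1 FOXO relative rather than 2 fell without control replicate 1 or 2. Without IL-33 replicate 1, 1 FOXO relative was past both thresholds, and without IL-33 replicate 3, 1 sphingosine-1-phosphate gene fell and Id2 was not called. With the longest transcript as length, Lef1 moved from rank 5 to 3, Tcf7 from 3 to 4 and Foxo1 from 4 to 5. Klf2, S1pr1 and Id3, with 7 to 97 counts a library, are limited by depth.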

Other observations

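Within the introns of Satb1, 2 annotated transcripts on the same strand had means that lay on the other side of 0 from Satb1 itself. E430014B02Rik had 169, 117 and 150 counts in the control libraries and 186, 152 and 208 with IL-33 (log2 fold change 0.30, 95% interval 0.02 to 0.57, edgeR adjusted p = 0.104). C230085N15Rik had 106, 75 and 80 counts in the control libraries and 126, 117 and 99 with IL-33 (log2 fold change 0.36, 95% interval 0.02 to 0.71, edgeR adjusted p = 0.109). Neither passed the test, and Satb1 fell by 0.20 on the log2 scale. These values were singled out after they had been seen.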
